A study of Homo sapiens with 24 samples.

Results

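The difference between OCI-Ly18 and SU-DHL-4 in their response to tazemetostat was measured in 12 of the 24 RNA sequencing libraries of the series, those in which tumour cells had been cultured with UTD cells. Both are established human lines of diffuse large B cell lymphoma (DLBCL), and both carried GFP. There were 4 groups of 3 libraries: OCI-Ly18 in DMSO, OCI-Ly18 in 500 nM tazemetostat, SU-DHL-4 in DMSO and SU-DHL-4 in 500 nM tazemetostat. The agent was given for 72 h before and during 48 h of culture with UTD cells, a name that the labels do not spell out, and viable GFP-positive tumour cells were then sorted. The other 12 libraries had the same design with CART19 cells and share no library with the first 12. For each gene the line difference is the log2 fold change (tazemetostat over DMSO) in SU-DHL-4 minus that in OCI-Ly18, so a positive value means that the level moved further up, or less far down, in SU-DHL-4. All 17766 genes that passed a filter on low counts, of 58735 in the table, were tested. Each line stands for itself alone: the labels give no EZH2 genotype, and whatever else separates 2 lines cannot be told apart from it. They do not say whether replicates were separate cultures, so p-values measure the spread between libraries, which may be technical.

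Tazemetostat inhibits EZH2, the catalytic subunit of Polycomb repressive complex 2 (PRC2). PRC2 methylates lysine 27 of histone H3, a mark of silenced genes that is lost slowly, over cell divisions, once the enzyme is blocked. In germinal centre B cells, from which many DLBCL arise, EZH2 is abundant and holds back genes of the cell cycle brake, of antigen presentation and of B cell exit from the germinal centre. Which genes carry the mark differs between cells.

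In the 12 libraries the deposited counts totalled 14889094 to 18093182 per library. The first principal component held 84.6% of the variance and separated the lines, and the second, with 4.47%, separated tazemetostat from DMSO in the same direction in both. The counts are of bulk RNA, so fewer cells of a type and less RNA per cell cannot be told apart. The 6 B cell markers, MS4A1, CD79A, CD79B, CD22 and PAX5 among them, were counted in every group, with a summed level of 2270 to 4700 CPM, that is counts scaled to the effective library size. Of 15 T cell markers, CD2 and CD7 had 0 counts in all 4 groups, and CD3D and CD3G had at most 2 and 10 counts over the 3 libraries of a group. Others were counted: CD247 had 389 to 516 counts per group, CD3E had 193 and 155 in SU-DHL-4, and CD8A had 39 and 63 in OCI-Ly18. The summed T cell list was 256 to 274 CPM in OCI-Ly18 in DMSO and 323 to 338 CPM in tazemetostat, and 55.0 to 57.6 and 38.6 to 41.0 CPM in SU-DHL-4. Most of this came from IL7R (157 to 231 CPM in OCI-Ly18, 0.612 to 1.62 CPM in SU-DHL-4), TRBC2 (66.8 to 76.0 CPM in OCI-Ly18, at most 0.183 CPM in SU-DHL-4) and TRAC (20.2 to 27.7 CPM in OCI-Ly18, 23.4 to 41.4 CPM in SU-DHL-4). TRAC fell in SU-DHL-4 and rose in OCI-Ly18, and its line difference was −1.09 ± 0.14 (adjusted p = 1.62e-07, edgeR quasi-likelihood test). The part of these transcripts in the results was not tested. Myeloid markers summed to at most 1.18 CPM and T and NK effector products to at most 3.03 CPM.

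The lines shared their decreases more than their increases. With adjusted p under 0.05 (edgeR quasi-likelihood test, Benjamini-Hochberg), 1817 genes rose and 2045 fell in OCI-Ly18 (10.2% and 11.5% of the genes tested, 21.7% in all), of which 531 (2.99%) and 72 (0.405%) moved by at least 1 log2, and 2768 rose and 2196 fell in SU-DHL-4 (15.6% and 12.4%, 27.9% in all), 1199 (6.75%) and 21 (0.118%) of them by at least 1 log2. Genes that fell in both lines numbered 1091, which is 53.3% of the decreases in OCI-Ly18 and 49.7% of those in SU-DHL-4. Genes that rose in both numbered 787, or 43.3% and 28.4%. The line difference itself was called for 1875 genes (10.6%). Of these, 1225 had a more positive response in SU-DHL-4 (6.90%) and 650 in OCI-Ly18 (3.66%), and 493 (2.77%) and 98 (0.552%) of them differed by at least 1 log2. Without OCI-Ly18 DMSO replicate 2, the count of decreases in OCI-Ly18 was 1361. Increases and decreases in SU-DHL-4 were 2286 and 2682 with no filter on low counts, and 2449 and 2441 with a stricter one. Increases stayed more numerous there with RLE or upper quartile scaling, DESeq2 or limma voom.

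The 3 tests together sort the genes. A response was shared, with no line difference called, for 607 increases (3.42% of the genes tested) and 1024 decreases (5.76%), 9.18% together. For 273 of these increases and 1009 of these decreases the 95% interval of the line difference stayed within 1.5 fold, and these are described as alike. Among genes called in SU-DHL-4 only, with a called line difference, 661 rose (3.72%) and 234 fell (1.32%). Among genes called in OCI-Ly18 only, 246 rose (1.38%) and 229 fell (1.29%). Genes called in both lines in 1 direction but unequally comprised 180 increases (1.01%) and 67 decreases (0.377%). Genes called in opposite directions comprised 127 that rose in SU-DHL-4 (0.715%) and 70 that rose in OCI-Ly18 (0.394%). For a further 714 increases and 597 decreases called in OCI-Ly18 alone, and 1192 and 801 called in SU-DHL-4 alone, no line difference was called, and whether the lines differ is undecided. With neither line called, a line difference was called for 43 genes more positive in SU-DHL-4 (0.242%) and 18 in OCI-Ly18 (0.101%). A single gene (n = 1) was called in opposite directions with no line difference called. The decreases are the least stable counts. Those of OCI-Ly18 only were 115, 127, 129, 127, 146 and 135 without OCI-Ly18 DMSO replicate 2 or 3, OCI-Ly18 tazemetostat replicate 2 or 3, or SU-DHL-4 tazemetostat replicate 1 or 2, and those of SU-DHL-4 only were 372 without OCI-Ly18 tazemetostat replicate 1.

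**Figure D1:**
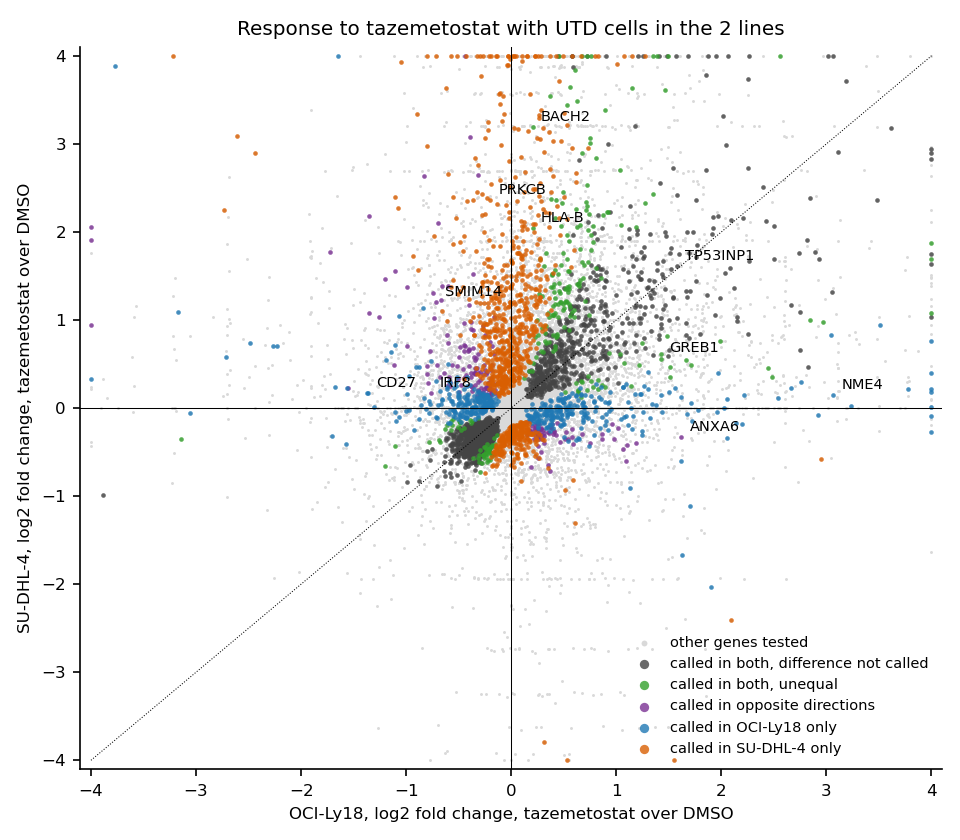
Log2 fold change of each of the 17766 genes after tazemetostat with UTD cells in OCI-Ly18 (x axis) and SU-DHL-4 (y axis), coloured by which tests were called; 236 genes beyond 4 log2 are drawn at the edge, and the dotted line marks equal responses. One-line increases lie along the axes, decreases lie close to the origin, and SMIM14 and ANXA6 lie in opposite quadrants.

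Promoters of 4 genes are shown because they belong to genes with different patterns and differ widely in their content of CG dinucleotides. Each is the RefSeq sequence (build GRCh38.p14) of 250 bases before to 50 after the gene's start, written 5′ to 3′ along the gene's strand with every CG in capitals. BACH2 lies at chr6:90296794-90297093 on the minus strand, PRKCB at chr16:23835733-23836032 on the plus strand, ANXA6 at chr5:151157730-151158029 on the minus strand and CD27 at chr12:6443642-6443941 on the plus strand. They hold 45, 38, 25 and 3 CG dinucleotides. The first pair rose in SU-DHL-4 from low levels, ANXA6 moved in opposite directions and CD27 fell in OCI-Ly18.
BACH2: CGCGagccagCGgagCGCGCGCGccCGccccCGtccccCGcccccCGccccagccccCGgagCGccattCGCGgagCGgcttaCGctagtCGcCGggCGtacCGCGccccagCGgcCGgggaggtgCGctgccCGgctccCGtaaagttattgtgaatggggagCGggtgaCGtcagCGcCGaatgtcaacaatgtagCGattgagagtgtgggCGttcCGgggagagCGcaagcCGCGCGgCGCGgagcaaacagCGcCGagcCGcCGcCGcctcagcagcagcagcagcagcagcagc
PRKCB: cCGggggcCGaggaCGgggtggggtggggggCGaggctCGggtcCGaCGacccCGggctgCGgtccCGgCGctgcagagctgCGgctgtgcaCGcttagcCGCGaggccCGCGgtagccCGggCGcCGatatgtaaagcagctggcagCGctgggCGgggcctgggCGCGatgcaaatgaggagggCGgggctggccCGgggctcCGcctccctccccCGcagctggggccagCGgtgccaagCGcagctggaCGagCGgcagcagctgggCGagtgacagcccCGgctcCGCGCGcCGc
ANXA6: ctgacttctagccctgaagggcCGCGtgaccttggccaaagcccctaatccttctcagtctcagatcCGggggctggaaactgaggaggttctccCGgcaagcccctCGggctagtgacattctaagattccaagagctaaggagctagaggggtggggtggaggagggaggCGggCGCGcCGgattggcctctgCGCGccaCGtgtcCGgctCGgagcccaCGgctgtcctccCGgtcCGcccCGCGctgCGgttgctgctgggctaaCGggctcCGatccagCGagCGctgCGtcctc
CD27: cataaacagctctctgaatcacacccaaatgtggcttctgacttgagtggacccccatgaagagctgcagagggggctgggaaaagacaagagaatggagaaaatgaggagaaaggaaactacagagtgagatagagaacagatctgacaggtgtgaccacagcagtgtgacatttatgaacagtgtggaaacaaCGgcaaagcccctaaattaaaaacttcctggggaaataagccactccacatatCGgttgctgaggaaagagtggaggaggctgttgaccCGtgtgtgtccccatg

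Of the genes tested, 11018 matched a promoter in the table, with a median of 26 CG in 300 bases and 79.2% holding at least 15. The genes that rose in OCI-Ly18 and fell in SU-DHL-4 had a median of 35.5 (58 promoters), those that fell in OCI-Ly18 and rose in SU-DHL-4 a median of 22 (100 promoters). Of the latter, 62.0% held at least 15 CG. One-line increases had medians of 26 in SU-DHL-4 and 32 in OCI-Ly18, and promoters of shared decreases held at least 15 CG in 92.4% of cases. These medians describe the classes and were not tested.

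SMIM14, which encodes a small membrane protein, moved in opposite directions. In OCI-Ly18 it measured 138, 135 and 134 CPM in DMSO and 84.4, 79.4 and 84.2 CPM in tazemetostat. In SU-DHL-4 it measured 36.6, 38.2 and 35.5 CPM in DMSO and 81.8, 82.9 and 89.5 CPM in tazemetostat. The groups did not overlap in either line, and the lines, far apart in DMSO, overlapped in tazemetostat, where SU-DHL-4 minus OCI-Ly18 was 0.04 ± 0.07 log2. SMIM14 (chr4:39546330-39639090, hg38) fell by 0.71 ± 0.07 (SE) log2 in OCI-Ly18 and rose by 1.21 ± 0.07 in SU-DHL-4, a line difference of 1.92 ± 0.10 (adjusted p = 2.6e-19, quasi-likelihood test of edgeR, n = 3 in each group). SMIM14 overlaps UGDH-AS1 on the opposite strand.

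BACH2, a repressor that keeps B cells from becoming plasma cells, had the smallest adjusted p of the line difference among the genes named here and rose in both lines. It measured 3.66, 5.17 and 4.16 CPM in SU-DHL-4 in DMSO and 36.9, 41.5 and 39.3 CPM in tazemetostat. In OCI-Ly18, where it was already abundant, it measured 619, 613 and 604 CPM and then 732, 694 and 688 CPM. The rise in SU-DHL-4 was 3.19 ± 0.10 log2 against 0.20 ± 0.05 in OCI-Ly18, and the line difference was 2.98 ± 0.11 (adjusted p = 2.66e-26, edgeR). SU-DHL-4 stayed below OCI-Ly18 in every library.

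PRKCB, the protein kinase C that links the B cell receptor to NF-kB, also rose in SU-DHL-4. SU-DHL-4 held 6.81, 12.3 and 8.26 CPM in DMSO and 45.7, 48.8 and 45.0 CPM in tazemetostat, while OCI-Ly18 held 176, 176 and 186 CPM and then 148, 158 and 163 CPM. The rise was 2.36 ± 0.11 log2 in SU-DHL-4, the change in OCI-Ly18 (−0.20 ± 0.08, adjusted p = 0.0646) did not pass, and the line difference was 2.56 ± 0.14 (adjusted p = 8.69e-17, edgeR).

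CHST15, a sulfotransferase of chondroitin sulfate, and CD24, a surface glycoprotein of B cells, were also low in SU-DHL-4 in DMSO. CHST15 went from 1.20, 0.483 and 1.44 CPM to 5.09, 7.08 and 7.22 CPM there, with 203 to 230 CPM in all 6 OCI-Ly18 libraries, and its line difference was 2.70 ± 0.24 (adjusted p = 9.04e-13, edgeR). CD24 went from 4.16, 4.62 and 4.45 CPM to 19.8, 20.4 and 24.3 CPM, with 157 to 190 CPM in OCI-Ly18 and a line difference of 2.11 ± 0.17.

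The one-line increases of each line mostly had a lower starting level in that line. The filter on low counts bears on this, since a gene low in 1 line can pass through the other. Over the 661 increases of SU-DHL-4 only, the median level in that line was 5.89 CPM in DMSO and 12.4 CPM in tazemetostat, while in OCI-Ly18 it was 20.2 CPM in DMSO and the median log2 change was −0.03. The levels in DMSO with CART19 cells come from libraries outside the UTD contrasts, although the filter and the estimate of spread were common to all 24. There OCI-Ly18 had the higher level for 77.3% of these genes, against 54.9% of all genes tested. For the 246 increases of OCI-Ly18 only the order was the reverse, with SU-DHL-4 higher for 82.9%, against 45.1% of all. For the 229 decreases of OCI-Ly18 only, the lines stood about level, with SU-DHL-4 higher for 51.1%. The median log2 ratio of SU-DHL-4 to OCI-Ly18 over the 661 genes was −1.53 in DMSO and −0.43 in tazemetostat with UTD cells, and −1.22 in DMSO with CART19 cells. Over the 127 genes up in SU-DHL-4 and down in OCI-Ly18 it was −0.31 and 0.44. The classes were chosen on these UTD values, so the shift between DMSO and tazemetostat is a description that the choice fixes. Of all genes tested, 11519 were called different between the lines in DMSO (64.8%) and 11396 in tazemetostat (64.1%).

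**Figure D2:**
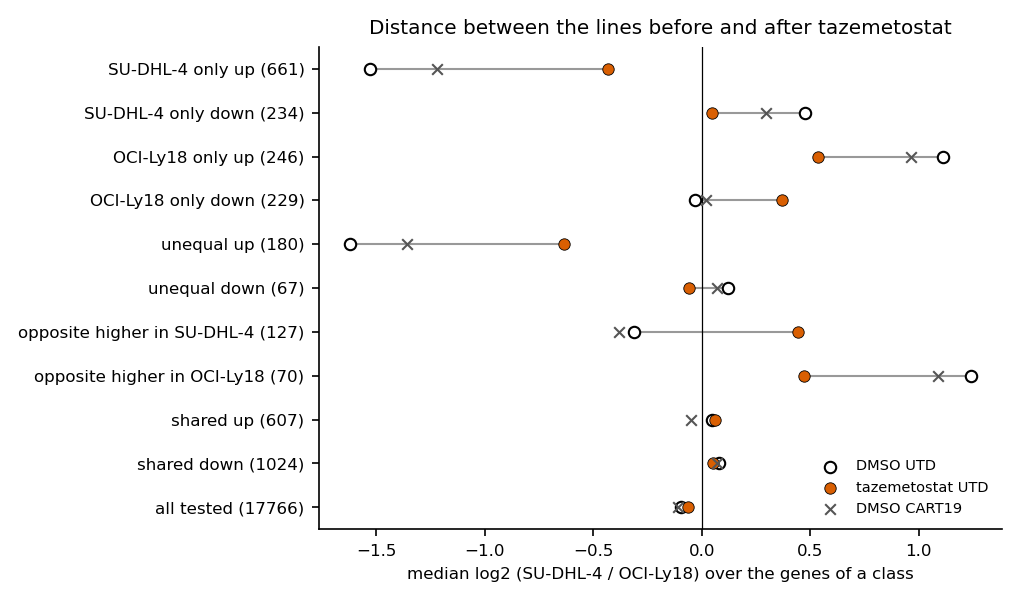
Median log2 ratio of SU-DHL-4 to OCI-Ly18 levels over the genes of each class (number of genes in brackets) in DMSO UTD (open circles), tazemetostat UTD (filled circles) and DMSO CART19 libraries (crosses). The circles of increases of SU-DHL-4 only lie at −1.53 and −0.43 and those of shared genes near 0. The choice of the classes fixes the shift between the circles, and both come from libraries used in that choice. The cross of the increases of SU-DHL-4 only lies at −1.22.

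Some increases began from no detected transcript. Among the 6 increases of SU-DHL-4 only that were largest by line difference, CNTNAP2, a neurexin family adhesion protein, MVB12B, an ESCRT-I subunit, CD163L1, a scavenger receptor, REEP2 and ANKRD9 had 0 counts over the 3 DMSO libraries of SU-DHL-4. In tazemetostat they had 12, 26, 15, 23 and 19 counts, which puts the rise at at least 3.86, 8.37, 4.83, 7.40 and 6.11 fold with 3 counts over the group set for 0. BTBD3 had 7 counts in DMSO and 228 in tazemetostat. In OCI-Ly18 the 6 genes had 186 to 1840 counts over the 3 DMSO libraries. All 6 reached the minimum for a named gene, a mean of 5 CPM in a group, only in OCI-Ly18, so their order between the lines is set by that choice and is no result. HOXA7, ADGRE5 and LAMA5, increases of OCI-Ly18 only, reached it only in SU-DHL-4. HOXA7, a homeobox factor and Polycomb target, had 0 counts in OCI-Ly18 in DMSO and 12 in tazemetostat, at least 3.70 fold more, with 271 and 319 in SU-DHL-4. ADGRE5, an adhesion receptor of leukocytes, went from 3 to 100 counts, a ratio of 30.8 with a counting interval of 10.2 to 152 (95%), and LAMA5, a laminin chain, from 3 to 61, a ratio of 18.8 with an interval of 6.14 to 93.7. These intervals cover counting error only. With CART19 cells the line difference was called again in the same direction for CD163L1, REEP2, BTBD3, ADGRE5 and LAMA5. It was not called for MVB12B (adjusted p = 0.241, edgeR) or ANKRD9. For CNTNAP2 it was 0.03 with CART19 cells, and for HOXA7 it was 1.74, of the other sign, with a fitted change of −2.02 in OCI-Ly18 where it was 4.97 with UTD cells. Neither was called with CART19 cells, and fitted values of genes with 0 counts in a group depend on the prior count.

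Among genes with at least 1 CPM in all 4 groups, the one-line increases of OCI-Ly18 with the largest line difference included NME4, LRP5 and GAMT. NME4, a mitochondrial nucleoside diphosphate kinase, measured 2.35, 2.91 and 2.74 CPM in OCI-Ly18 in DMSO and 18.7, 24.4 and 23.8 CPM in tazemetostat, against 29.2 to 36.5 CPM in the 6 SU-DHL-4 libraries. Its line difference was −2.91 ± 0.23 (adjusted p = 2.04e-13, edgeR). NME4 overlaps DECR2 on the same strand, and the line difference of DECR2 was −1.80 ± 0.29. LRP5, a WNT coreceptor, went from 1.05, 0.529 and 1.57 CPM to 5.13, 7.46 and 7.90 CPM in OCI-Ly18, a rise of 2.67 ± 0.26 log2, with 0.22 ± 0.13 in SU-DHL-4. GAMT, an enzyme of creatine synthesis, went from 9.41, 7.996 and 10.4 CPM to 25.0, 32.4 and 31.6 CPM in OCI-Ly18 and stayed between 76.8 and 91.7 CPM in SU-DHL-4 (line difference −1.74 ± 0.15). In each case OCI-Ly18 moved towards the level of the other line without reaching it.

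Genes that rose in OCI-Ly18 and fell in SU-DHL-4 had a median of 40.4 CPM in OCI-Ly18 and 108 CPM in SU-DHL-4 in DMSO. ANXA6, a calcium-dependent membrane-binding annexin, measured 1.49, 1.32 and 1.79 CPM in OCI-Ly18 in DMSO and 3.62, 5.64 and 4.95 CPM in tazemetostat. In SU-DHL-4 it measured 359, 362 and 342 CPM and then 285, 280 and 280 CPM. The log2 changes were 1.62 ± 0.16 and −0.33 ± 0.05, and the line difference was −1.95 ± 0.17 (adjusted p = 1.79e-12, edgeR). CSNK1E, a casein kinase, changed by 1.19 ± 0.14 and −0.40 ± 0.11 log2, and MEF2C, a transcription factor of B cell activation, by 0.96 ± 0.09 and −0.18 ± 0.07. SYNGR2, a vesicle membrane protein, changed by 1.01 ± 0.06 and −0.23 ± 0.05, and its neighbour on the opposite strand of chromosome 17, TK1, by 0.19 ± 0.06 and −0.67 ± 0.06.

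**Figure D3:**
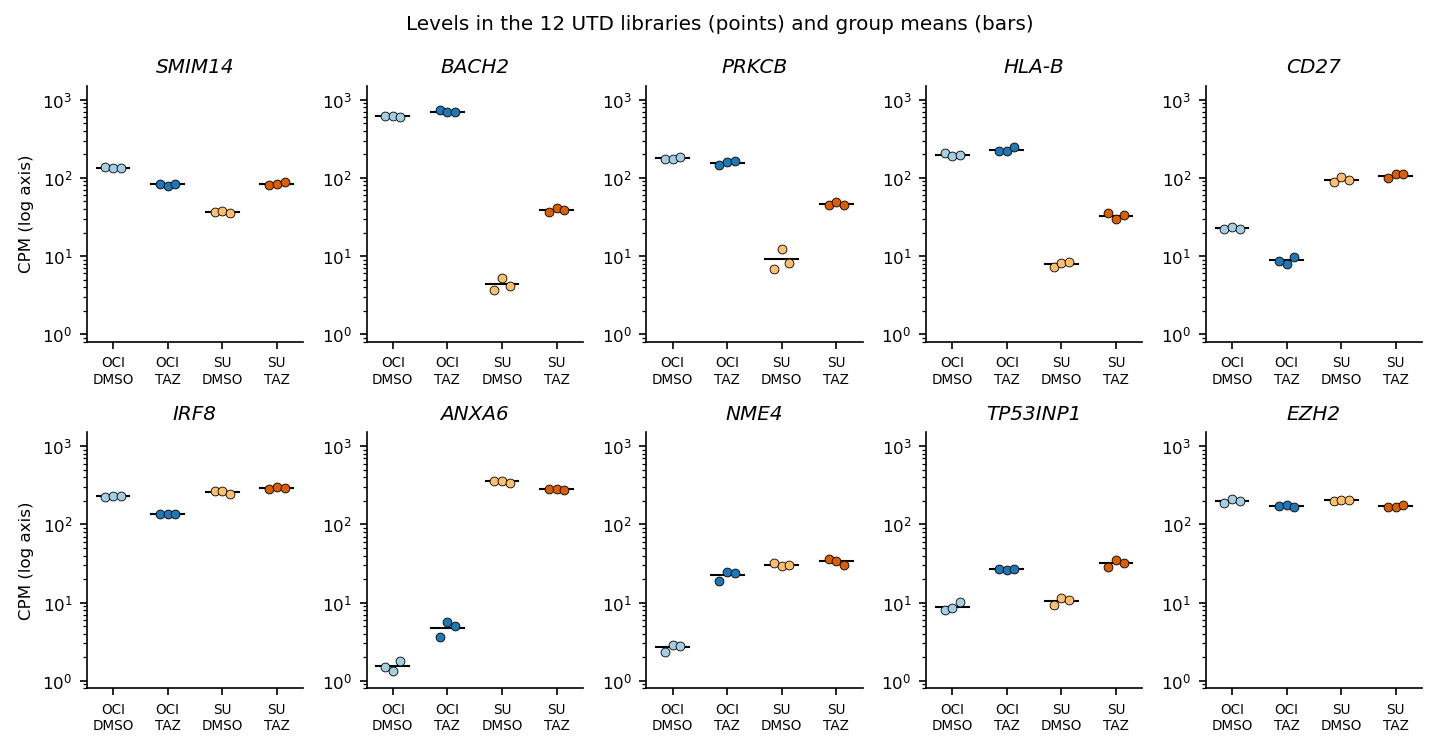
Levels in CPM (log axis) of 10 genes in the 12 UTD libraries, 3 points per group with the group mean as a bar. SMIM14 falls in OCI-Ly18 and rises in SU-DHL-4, BACH2, PRKCB and HLA-B rise from low levels in SU-DHL-4, CD27 and IRF8 fall in OCI-Ly18, ANXA6 and NME4 rise in OCI-Ly18, and TP53INP1 and EZH2 move alike in both lines.

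The germinal centre list differed most often among the lists described. Of its 31 measured members, 14 had a called positive line difference and 3 a negative one, 54.8% against 10.6% of all genes. The median line difference of the list was 0.33, against 0.04 over all genes. That median was 0.10 with limma voom, with 14 positive and 3 negative calls. With DESeq2, over 34 members, it was 0.19, with 15 and 3. In OCI-Ly18 10 members rose and 12 fell (10.2% and 11.5% of all genes), and in SU-DHL-4 13 rose and 4 fell (15.6% and 12.4%). With CART19 cells 12 members had a positive and 7 a negative line difference (5.92% and 4.20% of all genes), with a median of 0.19. Beside BACH2, IRF8, a transcription factor of germinal centre B cells, was at 226, 229 and 232 CPM in OCI-Ly18 in DMSO and at 135, 134 and 136 CPM in tazemetostat, and at 244 to 270 and 282 to 297 CPM in SU-DHL-4. It fell by 0.76 ± 0.05 log2 in OCI-Ly18 and rose by 0.17 ± 0.05 in SU-DHL-4 (line difference 0.93 ± 0.07, adjusted p = 1.22e-14, edgeR). S1PR2, the receptor that confines B cells to the germinal centre, fell by 0.66 ± 0.05 in OCI-Ly18, and its change in SU-DHL-4 (0.10 ± 0.05) did not pass. S1PR2 shares bases with DNMT1 on the same strand. CD38, a surface enzyme of germinal centre and plasma cells, and GCSAM, an adaptor that limits their motility, fell in OCI-Ly18 by 0.60 and 0.40 log2 and rose in SU-DHL-4 by 0.27 and 0.47. BCL6, the repressor that defines the germinal centre state, rose by 0.35 in SU-DHL-4 with 0.02 in OCI-Ly18 (line difference 0.33 ± 0.06). The 3 members with a negative line difference were MEF2C, SERPINA9 and PTPN6. SERPINA9, a protease inhibitor named for germinal centre B cells, was at 0.309, 0.264 and 0.504 CPM in OCI-Ly18 in DMSO and at 2.17, 2.05 and 2.002 CPM in tazemetostat, with 31.8 to 44.8 CPM in SU-DHL-4. PTPN6, the phosphatase SHP-1, rose in OCI-Ly18 from 1.12 to 3.22 CPM in DMSO to 4.52 to 6.11 CPM in tazemetostat, and its line difference was −1.32 ± 0.24.

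Of 33 B cell identity genes, 14 had a called positive line difference and 1 a negative one (45.5%, against 10.6% of all genes). In SU-DHL-4 19 rose and 1 fell (15.6% and 12.4% of all genes), and in OCI-Ly18 10 rose and 10 fell (10.2% and 11.5%). With CART19 cells 14 had a positive and 4 a negative line difference (5.92% and 4.20% of all genes). The sizes were modest for abundant surface proteins. CD22, an inhibitory coreceptor, fell by 0.23 ± 0.04 in OCI-Ly18 and rose by 0.24 ± 0.04 in SU-DHL-4, and the kinase BTK did likewise (−0.22 ± 0.05 and 0.22 ± 0.05). MS4A1, which encodes CD20, went from 488, 526 and 510 CPM to 460, 441 and 425 CPM in OCI-Ly18 and from 1648, 1684 and 1817 CPM to 2046, 2045 and 2100 CPM in SU-DHL-4, a line difference of 0.47 ± 0.07. CD27, a costimulatory receptor of the TNF receptor family, measured 22.3, 23.3 and 22.3 CPM in OCI-Ly18 in DMSO and 8.63, 7.92 and 9.80 CPM in tazemetostat. In SU-DHL-4 it lay between 89.9 and 112 CPM in all 6 libraries, and its line difference was 1.53 ± 0.12 (adjusted p = 2.55e-13, edgeR). Larger differences came from members low in SU-DHL-4. FCRL5, an Fc receptor-like protein, rose by 3.17 log2 there, from 0 to 0.751 CPM in DMSO to 2.96 to 3.54 CPM in tazemetostat, and TNFRSF13B, the receptor TACI, by 1.84, with 0.07 and −0.18 in OCI-Ly18.

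B cell receptor signalling genes differed in both directions. Of 32 measured, 12 had a positive and 4 a negative line difference, and the positive count was 7 without OCI-Ly18 DMSO replicate 3. With CART19 cells 8 had a positive and 6 a negative one, and the median was 0.00. FCGR2B, the inhibitory Fc receptor, had a line difference of 1.99 ± 0.24, from a fall of 0.60 ± 0.18 log2 in OCI-Ly18 and a rise of 1.38 ± 0.16 in SU-DHL-4. MALT1, the paracaspase of the NF-kB branch, rose by 0.64 ± 0.09 in SU-DHL-4 with −0.12 ± 0.09 in OCI-Ly18. The kinase LYN, at 109, 119 and 121 CPM in OCI-Ly18 in DMSO and 169, 164 and 170 CPM in tazemetostat, fell in SU-DHL-4 from 212, 215 and 216 to 177, 180 and 177 CPM, and its line difference was −0.80 ± 0.07 (adjusted p = 7.8e-12, edgeR). Among opposite genes outside these lists, TLR7, the endosomal RNA sensor, had a line difference of 2.43 ± 0.31, LRRK2, a kinase, of 2.80 ± 0.22, and LAT2, a signalling adaptor, of 1.78 ± 0.13, each down in OCI-Ly18 and up in SU-DHL-4. Decreases of OCI-Ly18 only included IL21R, the interleukin 21 receptor (−1.56 ± 0.19 log2), and ALOX5AP, the protein that activates 5-lipoxygenase (−1.31 ± 0.08), whose values in SU-DHL-4 were 0.23 ± 0.09 and 0.02 ± 0.07. Decreases of SU-DHL-4 only were small. ACOT7, an acyl-CoA thioesterase, went from 130, 126 and 115 CPM to 82.3, 75.0 and 83.6 CPM there and lay between 79.1 and 90.7 CPM in OCI-Ly18, a line difference of −0.72 ± 0.09.

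**Figure D4:**
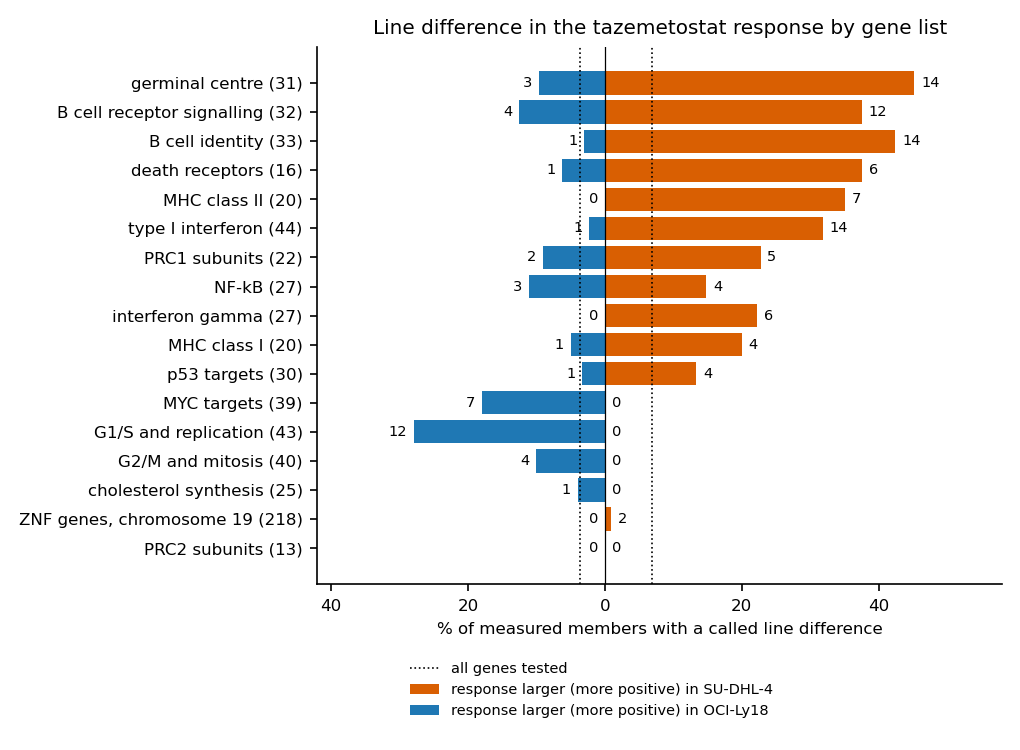
Share of the measured members of 17 gene lists (number measured in brackets) with a called line difference, to the right where the response was more positive in SU-DHL-4 and to the left where it was more positive in OCI-Ly18; counts stand at the bar ends and dotted lines mark all genes tested (6.90% and 3.66%). Germinal centre, B cell receptor and B cell identity genes reach 17 of 31, 16 of 32 and 15 of 33 called members, and PRC2 subunits 0.

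Where antigen presentation and interferon genes had a called line difference with UTD cells, it was mostly positive, but most members had none. With CART19 cells, positive and negative counts were 4 and 1 for MHC class II, 4 and 0 for class I and 11 and 4 for type I interferon. Of 27 measured genes of the interferon gamma list, 6 were positive and 0 negative with UTD cells (22.2%, against 10.6% of all genes). With CART19 cells 4 were positive and 4 negative (5.92% and 4.20% of all genes). The positive count with UTD cells was 3 with limma voom and 3 to 6 with 1 library left out. Of 20 MHC class II genes, 7 had a called positive line difference (35.0%), with medians of 0.15 log2 in OCI-Ly18 and 0.33 in SU-DHL-4. HLA-DRA, its alpha chain, measured 666, 652 and 668 CPM and then 836, 839 and 855 CPM in SU-DHL-4, and 961 to 1017 CPM in all 6 OCI-Ly18 libraries (line difference 0.28 ± 0.05). CIITA, the master activator of the class, rose alike, by 0.39 ± 0.05 in OCI-Ly18 and 0.36 ± 0.05 in SU-DHL-4, with an interval of the difference of −0.18 to 0.13. Of 20 MHC class I genes, 4 had a positive and 1 a negative line difference (25.0%), and the list did not rise as a whole, with 6 up and 4 down in OCI-Ly18 (median 0.15) and 7 up and 4 down in SU-DHL-4 (median −0.01). HLA-B measured 7.32, 8.21 and 8.43 CPM in SU-DHL-4 in DMSO and 35.8, 29.6 and 33.6 CPM in tazemetostat, against 190 to 210 and 220 to 247 CPM in OCI-Ly18, a line difference of 1.84 ± 0.11 (adjusted p = 1.67e-17, edgeR). Its annotated span overlaps HLA-C, and how reads of near-identical HLA genes were split is not given in the sources used here. NLRC5, the activator of class I genes, rose by 1.69 ± 0.10 in SU-DHL-4 and 0.27 ± 0.06 in OCI-Ly18, whereas B2M, the invariant light chain, fell alike (−0.20 ± 0.04 and −0.15 ± 0.04). Of 44 type I interferon response genes, 14 had a positive and 1 a negative line difference (34.1%), and 9 a positive one with limma voom. STAT2, the transcription factor of this pathway, rose by 0.52 ± 0.06 in SU-DHL-4 with −0.09 ± 0.06 in OCI-Ly18. PARP12, an interferon-induced ADP-ribosyltransferase, rose by 1.57 ± 0.15 and 0.41 ± 0.10, and SOCS1, a feedback inhibitor of cytokine signalling on the interferon gamma list, by 1.30 ± 0.10 and 0.26 ± 0.08. SOCS1 overlaps RMI2 on the opposite strand.

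The cell cycle response was mostly common to both lines. Of 43 genes of G1/S and DNA replication, 36 fell in OCI-Ly18 and 38 in SU-DHL-4 (11.5% and 12.4% of all genes fell). Among them 26 were alike and 12 had a called line difference (27.9%), each with a more negative response in SU-DHL-4. Of the 12, 9 fell in both lines, 2 were called in SU-DHL-4 only and 1 rose in OCI-Ly18 and fell in SU-DHL-4. The count of 12 was 17 with DESeq2 and with the stricter filter, and 15 with RLE scaling. The 36 decreases in OCI-Ly18 were 24 without OCI-Ly18 DMSO replicate 3 or OCI-Ly18 tazemetostat replicate 1. The median log2 change over the 43 genes was −0.25 in OCI-Ly18 and −0.43 in SU-DHL-4. E2F2, a transcription factor of S phase entry, fell from 218, 209 and 213 CPM to 169, 172 and 179 CPM in OCI-Ly18 and from 186, 184 and 173 CPM to 115, 106 and 107 CPM in SU-DHL-4, a line difference of −0.43 ± 0.07. Of 40 genes of G2/M and mitosis, 35 and 36 fell, 30 were alike and 4 had a line difference, a share near that of all genes (10.6%), and 2 without SU-DHL-4 DMSO replicate 1 or SU-DHL-4 tazemetostat replicate 3. CCNA2, cyclin A2, fell by 0.45 ± 0.05 and 0.56 ± 0.05. Of 10 CDK inhibitors and pocket proteins, 2 had a positive and 2 a negative line difference (40.0% against 10.6% of all genes). CDKN1A, the CDK inhibitor p21, differed: it measured 10.8, 7.38 and 5.601 CPM and then 23.5, 20.2 and 23.3 CPM in SU-DHL-4, with 35.8 to 49.1 CPM in OCI-Ly18, a line difference of 1.35 ± 0.18 (adjusted p = 6.64e-07, edgeR). SESN1, a stress-induced sestrin, rose in both, by 2.06 ± 0.15 in SU-DHL-4 and 0.63 ± 0.13 in OCI-Ly18. MYC, a growth-promoting transcription factor, went from 792 ± 2.29 to 1258 ± 13.7 CPM (SD, n = 3) in OCI-Ly18 and from 547 ± 12.7 to 598 ± 16.3 CPM in SU-DHL-4, increases of 0.67 ± 0.04 and 0.13 ± 0.04 log2 (line difference −0.54 ± 0.06). Of 39 MYC targets and ribosome biogenesis genes, 12 fell in OCI-Ly18 and 26 in SU-DHL-4, and 7 had a line difference (17.9%), each further down in SU-DHL-4. That count was 11 without OCI-Ly18 tazemetostat replicate 1 or SU-DHL-4 tazemetostat replicate 1 or 2, and 13 without OCI-Ly18 tazemetostat replicate 2. It was also 11 with RLE scaling and with no filter, and 13 with DESeq2 and with the stricter filter.

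Of 16 death receptor genes, 6 had a positive and 1 a negative line difference (43.8%, against 10.6% of all genes). The positive count was 3 without OCI-Ly18 tazemetostat replicate 1 or 3 or SU-DHL-4 tazemetostat replicate 1 or 2, and with no filter on low counts. CFLAR, the caspase 8 inhibitor, rose in SU-DHL-4 from 3.66, 3.65 and 3.70 CPM to 9.21, 6.79 and 9.05 CPM, and lay between 17.1 and 19.5 CPM in OCI-Ly18 (line difference 1.25 ± 0.22). BIRC3, an inhibitor of apoptosis, fell in OCI-Ly18 from 36.6, 42.0 and 42.3 CPM to 20.03, 16.6 and 19.8 CPM, with 10.9 to 13.6 CPM in SU-DHL-4. On the separate list of 16 BCL2 family genes, 3 had a positive and 0 a negative line difference (18.8%), with a median of 0.01. BMF, a BH3-only inducer of apoptosis of that family, moved in opposite directions, by −0.40 ± 0.08 and 1.17 ± 0.08 log2, a line difference of 1.57 ± 0.11 (adjusted p = 1.22e-14, edgeR).

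EZH2, the target of the drug, fell slightly and alike in both lines. It measured 191, 213 and 202 CPM in OCI-Ly18 in DMSO and 170, 176 and 170 CPM in tazemetostat, and 200, 207 and 204 CPM and then 169, 167 and 175 CPM in SU-DHL-4. EZH2 fell by 0.23 ± 0.05 and 0.26 ± 0.05 log2, with a line difference of −0.03 ± 0.07 and an interval of −0.17 to 0.11. Of 13 PRC2 subunits, 3 rose and 5 fell in each line, with a median of −0.03 log2 in OCI-Ly18 and −0.23 in SU-DHL-4, and 5 were alike. Among them 0 had a called line difference with edgeR, 2 had an unadjusted p under 0.05, 1 was called with DESeq2 and 0 with limma voom. With CART19 cells 1 had a positive and 1 a negative line difference. Of 218 ZNF genes on chromosome 19, 2 had a called line difference (0.917%). The alike increases with the largest smaller response were led by TP53INP1, a p53-induced regulator of autophagy, which went from 8.11, 8.53 and 10.1 CPM to 27.0, 26.03 and 26.8 CPM in OCI-Ly18 and from 9.40, 11.4 and 10.7 CPM to 28.9, 34.8 and 32.5 CPM in SU-DHL-4. The rises were 1.57 ± 0.12 and 1.61 ± 0.12, and the interval of the difference was −0.31 to 0.38. NLGN2, a neuronal adhesion protein, rose by 1.52 ± 0.15 and 1.58 ± 0.15. Among alike decreases SLC7A11, the cystine transporter, fell by 0.77 ± 0.16 and 0.59 ± 0.12, and the interval of its difference was −0.22 to 0.58.

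The line difference was measured a second time in the 12 libraries with CART19 cells. There 1797 genes were called (10.1%), 1051 more positive in SU-DHL-4 (5.92%) and 746 in OCI-Ly18 (4.20%), 473 (2.66%) and 81 (0.456%) of them by at least 1 log2. Which line had the larger count depended on the processing. Positive and negative counts were 925 and 1020 with RLE scaling, 968 and 1057 with the stricter filter, and 974 and 1165 with DESeq2. They were 1263 and 549 with upper quartile scaling, 900 and 687 with limma voom, and 962 and 843 with no filter. Of the 1225 genes with a positive line difference with UTD cells, 89.1% kept the sign and 591 (48.2%) were called again, against 63.0% and 9.32% of all genes tested, while 2 were called with the other sign. Of the 650 with a negative one, 90.9% kept the sign and 291 (44.8%) were called again. None was called with the other sign by edgeR, DESeq2 or limma voom, and 2 had an unadjusted p under 0.05. The genes called in opposite directions were called again for 76.4% of the 127 and 74.3% of the 70, and the decreases of OCI-Ly18 only for 26.6% of the 229. Across the 11206 genes with at least 1 CPM in all 4 UTD groups, the line difference with UTD and with CART19 cells had Pearson's r of 0.60 and Spearman's rho of 0.46, as a description across genes, which are not independent replicates and come from the same lines. BACH2 had a line difference of 3.15 ± 0.12 with CART19 cells, CD27 of 1.51 ± 0.12, ANXA6 of −1.93 ± 0.15 and NME4 of −2.84 ± 0.22, each near its value with UTD cells. The 2 values differed from each other for 35 genes (0.197%), 30 of them lower with CART19 cells (0.169%). TP53INP1, alike with UTD cells, had a line difference of −0.67 ± 0.16 with CART19 cells (adjusted p = 0.004, edgeR). The count of 746 was 1149, 1522, 1128, 1387 and 1137 without OCI-Ly18 DMSO CART19 replicate 2, OCI-Ly18 tazemetostat CART19 replicate 2 or 3, or SU-DHL-4 tazemetostat CART19 replicate 1 or 3. Beside these the positive counts were 761, 947, 758, 834 and 747.

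**Figure D5:**
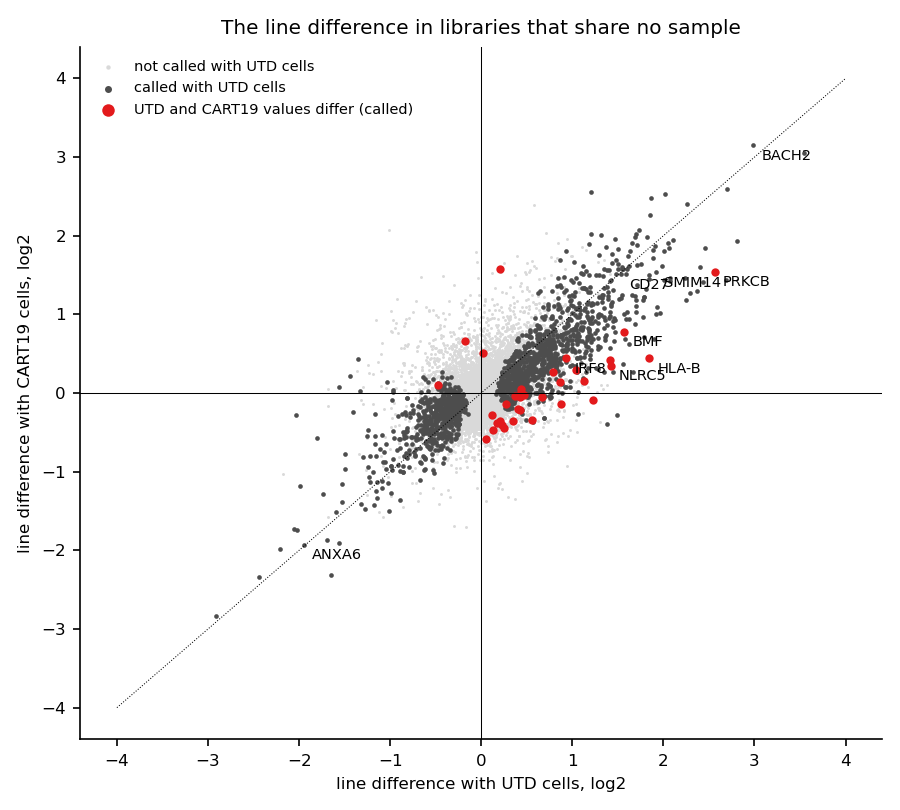
Line difference (log2) with UTD cells (x axis) and CART19 cells (y axis) for the 11206 genes with at least 1 CPM in all 4 UTD groups; dark points were called with UTD cells, red points are 34 genes whose 2 values differ from each other (adjusted p under 0.05), and the dotted line marks equal values. Most called genes lie in the same quadrant in both, while HLA-B, NLRC5 and PRKCB lie below the line.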

How the data were processed

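Bulk RNA was sequenced from 24 libraries of sorted tumour cells, and the labels name NEBNext Ultra II for library preparation. The authors deposited raw counts, 1 whole number for each gene in each library, without normalization. The build hg38 and DESeq2 are named in the submitters' processing notes. Which tools aligned and counted the reads, and whether strand was used, is not given in the sources used here, and overlapping genes may therefore share reads. GENCODE release 29 holds each of the 58735 gene IDs at identical coordinates, and 27 gene names that a spreadsheet had turned into dates were looked up again there. Each row (all but 0) named a gene.

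Libraries held 14783781 to 20148891 counts. Replicates of a UTD group differed beyond sampling noise in all 12 pairs (chi-square per degree of freedom 2.94 to 7.05), and each was counted as a sample. In R 4.3.3 with edgeR 4.0.16, all 24 libraries were fitted in 8 groups (TMM, filterByExpr by group, robust quasi-likelihood, 16 residual degrees of freedom, common biological coefficient of variation 0.0801), with Benjamini-Hochberg adjustment over the 17766 genes tested. Errors are standard errors, and levels are CPM with TMM scaling. Where a group had 0 counts a fold is a bound with 3 counts over the group. The method was tested on simulated data.

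The members, classes and 32 gene lists were chosen with earlier results of these data known. Named genes were, among protein coding genes with at least 5 CPM in a group and replicates that do not overlap, the largest line differences of each class, the largest alike responses, up to 4 members per list and a set of anchor genes. Genes with at least 1 CPM in all 4 groups, further list members and the promoters of BACH2, PRKCB and CD27 were chosen after their values were seen, and other promoters that the rule picks are not printed. Alternatives were RLE and upper quartile scaling, no or a stricter filter (at least 1 CPM throughout a group, and 20 counts on average), DESeq2 1.42.0, voom of limma 3.58.1, fits of 12 libraries, a minimum of 1 log2, each library left out and a replicate block. Summaries used Python 3.11.15. 1 gene with a called line difference is not reported here.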

Additional observations from a re-analysis of the deposited data

Results flagged for a closer look

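The response to tazemetostat differed between the lines for 1875 genes with UTD cells, by the test of the difference itself (edgeR quasi-likelihood test, adjusted p under 0.05).

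For 35 genes (0.197% of those tested) the line difference itself differed between CART19 and UTD cells, 30 of them with a smaller or more negative value with CART19 cells. The class I genes lead these. The value with CART19 minus that with UTD cells was −1.40 ± 0.13 for HLA-B (adjusted p = 2.11e-09, edgeR) and −1.07 ± 0.14 for NLRC5 (adjusted p = 8.99e-06). HLA-B rose by 2.04 log2 in SU-DHL-4 with UTD cells and by 0.50 with CART19 cells, and its log2 changes in OCI-Ly18 were 0.20 and 0.06, the latter not called, while NLRC5 rose by 1.69 and 0.49 in SU-DHL-4. For PRKCB the value was −1.02, with line differences of 2.56 and 1.55, and for BMF −0.79, with 1.57 and 0.78. For SOCS1 it was −0.74, for MS4A1 −0.50 and for IRF8 −0.49. The line difference of MS4A1 was 0.47 with UTD cells and −0.03 with CART19 cells. RHOBTB3 had the value 4.35, and it rests on 13 and 4 counts over the 3 SU-DHL-4 libraries in DMSO and tazemetostat with UTD cells.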

How the results depend on the processing

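Of the 1875 called line differences, 76.2% to 97.1% were called again under each of the other scalings, filters, tools and left-out libraries tried with UTD cells, and 0 changed sign. TMM, RLE and upper quartile scaling left the median line difference of all genes at 0.04, 0.02 and 0.05 log2. Over the named genes and alternatives, 3478 values kept direction and call, 220 kept direction and lost the call, 1 gained it and 0 reversed. Some counts moved by more than 1.5 times, and the cause was not tested. Decreases of SU-DHL-4 only were 370 with no filter and 367 with the stricter one. With DESeq2, 1165 genes had a negative line difference with CART19 cells and 974 a positive one. A minimum of 1 log2 left 493 positive and 98 negative line differences with UTD cells and 473 and 81 with CART19 cells, and within the lines 531 increases and 72 decreases for OCI-Ly18 against 1199 and 21 for SU-DHL-4.

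With 1 library left out, positive and negative line differences were 844 to 1199 and 512 to 873 with UTD cells, and 734 to 949 and 614 to 1522 with CART19 cells. Decreases were 1361 to 2181 in OCI-Ly18, 115 to 260 in OCI-Ly18 only and 162 to 372 in SU-DHL-4 only.

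Replicate numbers in a deposited sheet did not pair the libraries: same-numbered libraries of a line deviated from their group means with correlations of −0.02 to 0.04. With these numbers as a replicate block within each line, 1684 line differences were called, 1667 of them shared with the fit without it.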
